A study of Homo sapiens with 15 samples.

Results

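The 9 genes described here encode enzymes that move carbon between aspartate, malate, oxaloacetate, pyruvate and phosphoenolpyruvate (PEP): PCK2, PC, GLUD1, GOT1, GOT2, MDH1, MDH2, ME1 and ME2. They were grouped by pathway, not by their readings, and were found on the arrays by matching each probe's RefSeq accession to a gene symbol. All 9 were measured, by 11 probes, and each of these probes was well above background on all 15 arrays. The whole series held 26826 tested features, of which 16585 carried a gene symbol.

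A2058, an established human malignant melanoma cell line, was grown in serum-containing medium and exposed for 8 h to 1 of 5 conditions, with 3 independent experiments each, and total RNA was hybridised to 1-colour Agilent arrays. NP was given at 3 µM and its vehicle was DMSO. The biguanides metformin (MET, 5 mM) and phenformin (PHEN, 50 µM) were given in water, and water alone (W) was their vehicle. The series title calls NP neopetasin, while the published methods describe petasin (PT), a compound of the same plant, at the same dose, so the label NP is kept. All values come from 1 cell line, 1 dose of each compound and 1 time. MET and PHEN share the W arrays.

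In textbook biochemistry, the malate-aspartate shuttle carries reducing equivalents from cytosolic NADH into the mitochondrion. GOT1 and MDH1 are its cytosolic enzymes and GOT2 and MDH2 its mitochondrial ones. Anaplerosis refills the TCA cycle: PC makes oxaloacetate from pyruvate, and GLUD1 feeds glutamate carbon in as α-ketoglutarate. PCK2, the mitochondrial PEP carboxykinase, and the malic enzymes ME1 (cytosolic) and ME2 (mitochondrial) take carbon out as PEP or pyruvate. Petasin and the biguanides are described as inhibitors of respiratory complex I, which oxidises NADH, and aspartate synthesis is known to depend on that oxidation.

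Signals are given as log2 of the processed signal minus the 75th percentile of the same array, so that 0 is the signal of a probe at that percentile. A log2 difference of 1 is a doubling of the signal relative to that percentile, and the amount of RNA per cell was not measured. A gene was called a differentially expressed gene (DEG) at an adjusted p of at most 0.05 and a change of at least 1.5-fold, by limma with Benjamini-Hochberg adjustment over all features. W replicate 1 and MET replicate 1 stood apart, with 45044 and 44451 of 58201 probes well above background, against 25804 to 37924 on the other 13 arrays. The DMSO and NP arrays lay on slides 1 and 2 and the W, MET and PHEN arrays on slides 3 and 4, with replicate 3 on the second slide of each set. By the best probe of each gene, 7 of 8 melanocyte lineage genes cleared background on each of the 15 arrays (MITF, SOX10, PMEL, MLANA, TYRP1, DCT and S100B) and TYR on 13. The melanoma genes AXL, NGFR, VIM and FN1 were so on all 15. Of the epithelial genes, KRT5, CDH1 and EPCAM were so on 0 arrays and KRT14 on 15, and of the leukocyte genes, PTPRC and CD14 on 15 and CD3E on 11. Clearing background did not mean a bright signal. MITF, SOX10, PMEL, DCT and S100B read from 1.96 to 5.09, and MLANA, TYR and TYRP1 from -6.09 to -0.13. KRT14 read from -1.99 to -0.60, and PTPRC, CD3E and CD14 from -5.19 to -1.33. The part of other cell types in the results was not tested.

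With 1 replicate term shared by all arrays, no enzyme of the group passed the DEG threshold with any compound. With the replicate number as a block within each vehicle set, PCK2 passed with NP (adjusted p = 0.0273), where 62 features, or 0.231% of all, were called. With the shared term and NP, 0 of 9 were called, against 10 of 26826 features (0.0373%). With MET, 0 of 9 were called, against 0 features (0%), and 679 features had an unadjusted p of at most 0.05. With PHEN, 0 of 9 were called, against 7 features (0.0261%). PCK2 was the only one of the 9 with an unadjusted p of at most 0.05, and it was so with each compound. The share of all features past that level was 2.78% higher and 2.01% lower with NP, 1.28% higher and 1.25% lower with MET, and 0.76% higher and 1.66% lower with PHEN. The median log2 difference of the 9 was -0.0007 with NP, 0.06 with MET and 0.05 with PHEN, beside -0.02, -0.003 and -0.04 over all features.

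**Figure D1:**
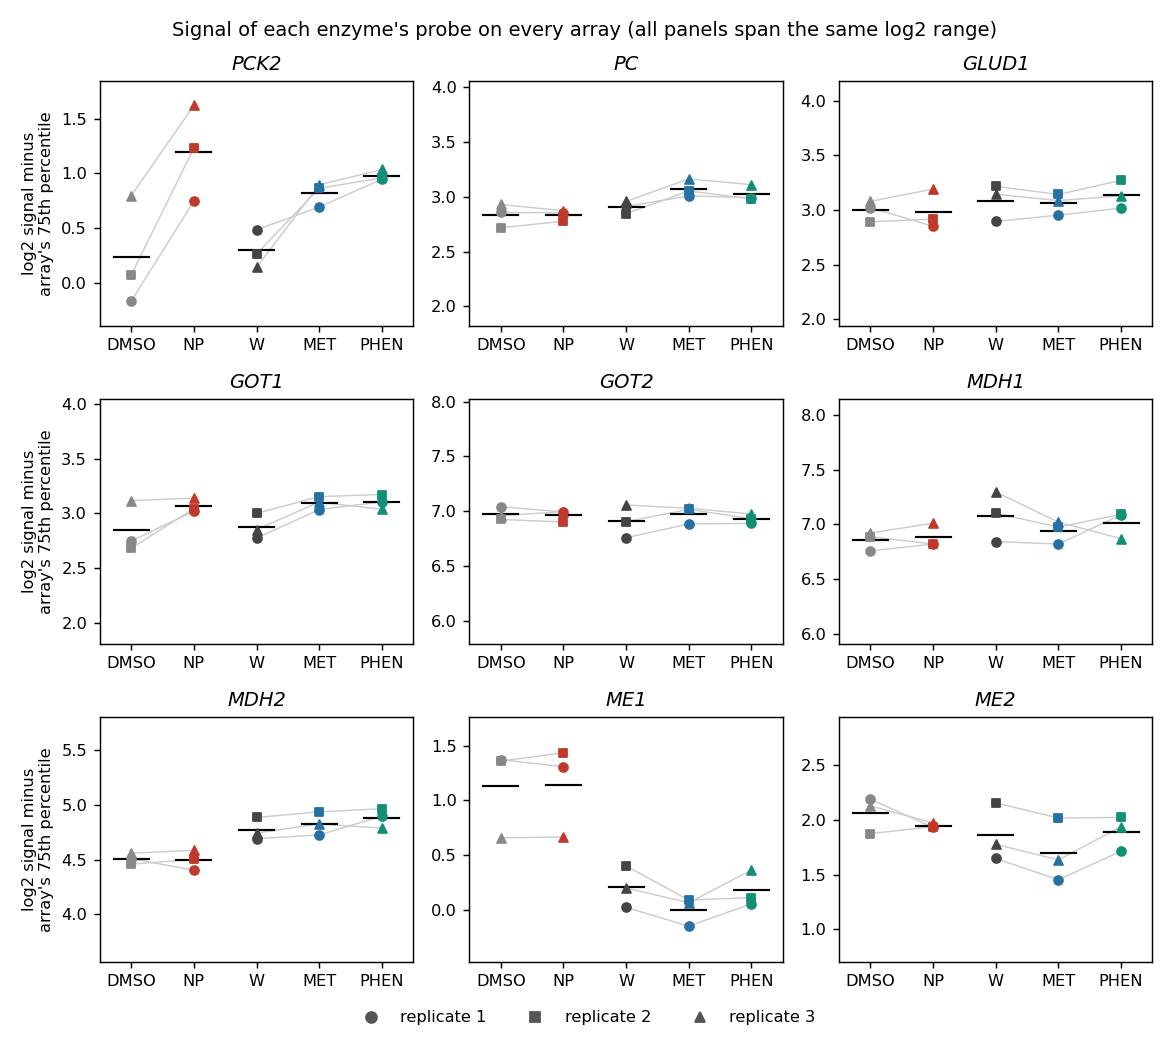
Log2 signal minus the array's 75th percentile (y axis) of the probe standing for each enzyme, in the 5 groups (x axis), where each point is 1 array, bars are group means and grey lines join arrays of the same replicate number within a vehicle set. PCK2 was higher on every treated array than on the vehicle array of its number, and ME1 was higher on all DMSO and NP arrays (0.66 to 1.44) than on all W, MET and PHEN arrays (-0.15 to 0.40).

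PCK2 (RefSeq annotation of GRCh38.p14, chr14:24094171-24104125), which converts mitochondrial oxaloacetate to PEP, showed the largest difference of the 9 with all 3 compounds. Its signal was -0.17, 0.07 and 0.79 on the DMSO arrays of replicates 1, 2 and 3, and 0.74, 1.23 and 1.62 on the NP arrays. The groups overlapped, since DMSO replicate 3 lay above NP replicate 1, but NP was above DMSO in each of the 3 pairs, by 0.91, 1.16 and 0.83. All 3 pairs were higher for 14.1% of all features. For PCK2 the pairs gave the following estimate. The log2 difference was 0.97 (SE 0.22, 95% interval 0.47 to 1.46, n = 3 per group), or 1.95-fold. It ranked 101 of 26826 features by p, with an adjusted p of 0.365 in limma. In each vehicle set replicates 1 and 2 shared a slide and replicate 3 lay on another, so replicate number and slide overlap. With replicate as a block within each set PCK2 passed the threshold (adjusted p = 0.0273), with 62 features called in place of 10. It also passed with slide as a term (adjusted p = 0.0331) or as a random block (adjusted p = 0.0422), and over all adjusted alternatives its p ran from 0.0273 to 1.00. On slide 1 (replicates 1 and 2) the difference was 1.04, and on slide 2 (replicate 3) it was 0.83.

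With the biguanides, PCK2 was 0.48, 0.26 and 0.14 on the W arrays of replicates 1 to 3. It was 0.69, 0.86 and 0.89 on the MET arrays and 0.95, 0.96 and 1.03 on the PHEN arrays. Every MET and every PHEN array lay above every W array, as for 3 of 9 enzymes with each compound and 3.18% and 3.40% of all features. By the probe standing for the gene, every PHEN array also lay above every MET array. That held for 1 of 9 enzymes and 2.62% of all features. The log2 difference was 0.52 with MET (SE 0.22, interval 0.03 to 1.01, adjusted p = 1.00), or 1.44-fold. With PHEN it was 0.68 (SE 0.22, interval 0.19 to 1.17, adjusted p = 1.00), or 1.61-fold. The smallest pair difference with MET, 0.21, came from replicate 1, where both arrays had the high number of probes above background. Without replicate 1 the difference was 0.68 with MET and 0.79 with PHEN.

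The other PCK2 probe, designed on NM_001018073, also read higher with treatment in 9 of 9 pairs, by smaller amounts. Of the 26826 features, with 1 probe per gene, 14.1%, 21.1% and 11.2% were higher in all 3 pairs with NP, MET and PHEN. The shares over all probes were not computed. The other probe read -1.50, -1.22 and -1.28 with DMSO and -0.96, -0.55 and -0.62 with NP, so that these groups did not overlap at it. Higher without overlap with NP were 3.01% of the features. The difference was 0.62 with NP (SE 0.12, interval 0.36 to 0.89, adjusted p = 0.180 over all probes). With MET it was 0.22 (interval -0.04 to 0.48) and with PHEN 0.22 (interval -0.04 to 0.48). The W arrays read -1.40, -1.28 and -1.35, below all MET arrays (-1.24, -1.25 and -0.87) and all PHEN arrays (-1.16, -1.21 and -1.01). Such a separation from W held for 3.18% of the features with MET and 3.40% with PHEN. The MET and PHEN arrays overlapped each other at this probe.

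**Figure D2:**
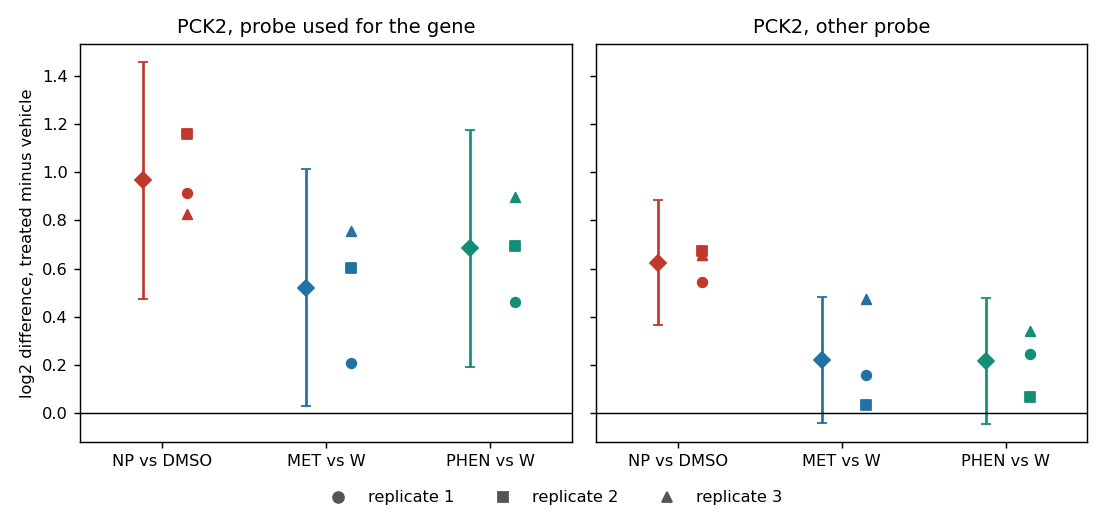
Log2 difference between treated and vehicle arrays (y axis) for both PCK2 probes under the 3 comparisons (x axis), where diamonds with bars are limma estimates with 95% intervals and the other symbols are the 3 replicate pairs. All 18 pair differences lie above 0, from 0.03 to 1.16.

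Whether the compounds differed in their PCK2 response was tested directly. The NP effect exceeded the MET effect by 0.44 (interval -0.25 to 1.14) and the PHEN effect by 0.28 (interval -0.41 to 0.98), both with an adjusted p of 1.00. By replicate, NP minus MET was 0.70, 0.56 and 0.07, and NP minus PHEN was 0.45, 0.47 and -0.07, so that replicate 3, on slides of its own, showed little or no difference. Without replicate 3 the differences were 0.63 and 0.46, without replicate 1 0.31 and 0.20, and without replicate 2 0.39 and 0.19. For the other probe these differences were 0.40 (interval 0.03 to 0.77) and 0.41 (interval 0.04 to 0.78), again with an adjusted p of 1.00. PHEN and MET, both biguanides with different groups on the terminal nitrogen, were not given at matched doses. Their direct difference in PCK2 was 0.16 (interval -0.33 to 0.65), and -0.004 (interval -0.26 to 0.26) at the other probe. In limma 0 features (0%), and 0 of 9 enzymes, were called in each of these 3 contrasts, with 756, 653 and 760 features at an unadjusted p of at most 0.05. For the other 8 enzymes the NP effect minus the MET effect ran from -0.17 (PC) to 0.21 (ME1), NP minus PHEN from -0.15 (ME2) to 0.09 (MDH1), and PHEN minus MET from -0.05 (PC) to 0.19 (ME2).

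GOT1 (chr10:99396870-99430624), the cytosolic aspartate aminotransferase, was slightly higher in 9 of 9 pairs, of which the MET and PHEN pairs share the W arrays. Of all features, 14.1%, 21.1% and 11.2% were higher in all 3 pairs with NP, MET and PHEN. GOT1 read 2.75, 2.68 and 3.12 with DMSO and 3.02, 3.04 and 3.14 with NP, and DMSO replicate 3 overlapped the NP arrays. It read 2.77, 3.00 and 2.85 with W, 3.03, 3.15 and 3.10 with MET, and 3.11, 3.17 and 3.04 with PHEN, so that W lay below both biguanide groups. The log2 difference was 0.22 with NP (interval -0.04 to 0.48), 0.22 with MET (interval -0.04 to 0.48) and 0.23 with PHEN (interval -0.03 to 0.49), each with an adjusted p of 1.00. These intervals include 0 and reach no further than 0.49. GOT2, the mitochondrial form, differed by -0.01, 0.07 and 0.03 with NP, MET and PHEN, and its arrays lay between 6.76 and 7.06.

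Stretches before the starts of GOT1 and PCK2 are shown, GOT1 for its motif and PCK2 as the enzyme with the largest difference. GOT1 was the only one of the 9 whose promoter window held the C/EBP-ATF element. This motif is bound by ATF4, the transcription factor of amino acid stress. RefSeq windows (GRCh38.p14, 250 bases before to 50 after a gene start) were found for 9 of 9 genes, as 12 windows. TGATGNAA, searched on both strands, was in 1 of 9 genes, or 1 of these 12 windows, and in 3.62% of all 35116 windows. The E box CACGTG, which reads alike on both strands, was in 0 of 9 genes, or 0 of these 12 windows, and in 7.26% of all windows. The stretches printed lie before any annotated transcript of the gene and run 5′ to 3′ on the gene's strand. Capitals mark the element, which in GOT1 lies on the opposite strand, from base -198 to -191 counted from the start. The GOT1 stretch is chr10:99430625-99430874 (strand -) and the PCK2 stretch, which holds neither motif, is chr14:24094061-24094170 (strand +). The PCK2 stretch covers bases -250 to -141 only, so the bases nearest its start are not shown.
GOT1: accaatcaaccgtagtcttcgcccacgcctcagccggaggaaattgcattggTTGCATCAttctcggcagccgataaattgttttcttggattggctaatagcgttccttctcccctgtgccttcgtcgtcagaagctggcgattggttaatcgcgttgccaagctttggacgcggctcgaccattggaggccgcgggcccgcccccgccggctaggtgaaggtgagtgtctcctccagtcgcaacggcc
PCK2: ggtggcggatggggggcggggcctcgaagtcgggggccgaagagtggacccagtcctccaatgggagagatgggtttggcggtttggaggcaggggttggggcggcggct
A match here is a description of letters, and the arrays did not measure binding.

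PC, the pyruvate carboxylase that replenishes oxaloacetate, was even with NP and slightly higher with both biguanides. It read 2.86, 2.72 and 2.93 with DMSO and 2.86, 2.78 and 2.87 with NP, a log2 difference of -0.0007 (interval -0.17 to 0.17). It read 2.91, 2.85 and 2.96 with W, 3.01, 3.05 and 3.16 with MET, and 2.99, 2.98 and 3.11 with PHEN. W lay below both treated groups, by 0.17 with MET (interval -0.002 to 0.34, adjusted p = 1.00) and 0.12 with PHEN (interval -0.05 to 0.30, adjusted p = 1.00). PCK2, PC and GOT1 were thus the 3 of 9 enzymes with every treated array above every vehicle array, for MET and for PHEN alike, where 3.18% and 3.40% of all features were. With NP, 0 of 9 enzymes and 3.01% of features showed this. In the opposite direction, 0 of 9 enzymes were below vehicle without overlap, beside 3.55%, 2.83% and 4.78% of features with NP, MET and PHEN.

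**Figure D3:**
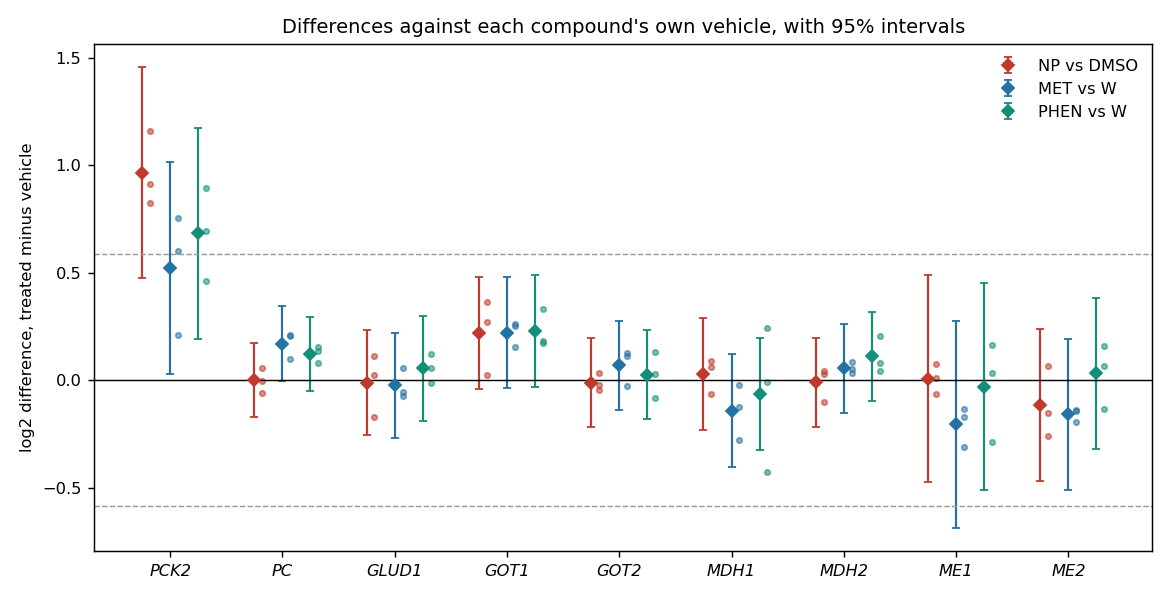
Log2 difference between treated and vehicle arrays (y axis) for the 9 enzymes (x axis), where diamonds and bars are limma estimates with 95% intervals, small points are the 3 replicate pairs and dashed lines mark a 1.5-fold change. PCK2 alone has intervals above 0, from 0.47 to 1.46 with NP, 0.03 to 1.01 with MET and 0.19 to 1.17 with PHEN.

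The malate dehydrogenases, which interconvert malate and oxaloacetate, were not called with any compound. MDH1, the cytosolic form, differed by 0.03 with NP (interval -0.23 to 0.29), -0.14 with MET (interval -0.40 to 0.12) and -0.06 with PHEN (interval -0.33 to 0.20). Its PHEN pairs were 0.24, -0.01 and -0.43, with replicate 3 on another slide than the others. The other MDH1 probe gave 0.19, -0.12 and -0.04. MDH2, the mitochondrial form, differed by -0.01 with NP (interval -0.22 to 0.20), 0.06 with MET (interval -0.15 to 0.26) and 0.11 with PHEN (interval -0.10 to 0.32). It was above W in all 6 biguanide pairs, which share the W arrays. Of all features, 21.1% were higher in all 3 MET pairs and 11.2% in all 3 PHEN pairs.

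GLUD1, the mitochondrial glutamate dehydrogenase, differed by -0.01 with NP (interval -0.26 to 0.23), -0.02 with MET (interval -0.27 to 0.22) and 0.05 with PHEN (interval -0.19 to 0.30). GLUD2 is a near-identical copy of this gene, so the reading of a GLUD1 probe is uncertain. The GLUD2 values were 0.10, 0.09 and 0.15, all uncalled.

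ME2, the mitochondrial malic enzyme, read 2.19, 1.87 and 2.13 with DMSO and 1.93, 1.94 and 1.97 with NP, a difference of -0.12 (interval -0.47 to 0.24). It was below W in all 3 MET pairs, by a mean of -0.16 (interval -0.51 to 0.19), and differed by 0.03 with PHEN (interval -0.32 to 0.38). Of all features, 22.2% were lower in all 3 MET pairs. ME1, the cytosolic malic enzyme that makes NADPH, differed by 0.01 with NP (interval -0.48 to 0.49), -0.21 with MET (interval -0.69 to 0.28) and -0.03 with PHEN (interval -0.51 to 0.45).

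ME1 (chr6:83210402-83431051) differed more between the DMSO and W slide sets than with any compound. It read 1.37, 1.36 and 0.66 with DMSO and 1.31, 1.44 and 0.67 with NP, against 0.02, 0.40 and 0.20 with W. The MET arrays read -0.15, 0.09 and 0.07 and the PHEN arrays 0.06, 0.11 and 0.36. Within the DMSO and NP arrays, those of slide 2 (replicate 3) were lower than those of slide 1. DMSO exceeded W by 0.92 (SE 0.22, interval 0.44 to 1.40), or 1.90-fold, and ME1 was called (adjusted p = 0.0197), as 1 of 9 enzymes and 10.7% of all features. Every DMSO array lay above every W array for 1 of 9 enzymes, ME1, and 9.12% of all features. The median over all features in this contrast was -0.13. This call was lost without replicate 1 (0.71, adjusted p = 0.235) or replicate 2 (0.90, adjusted p = 0.186), and with slide as a random block (0.82, adjusted p = 0.0721). No slide held both vehicles, so vehicle and slide set cannot be told apart. MDH2 was lower with DMSO than with W by -0.27 (interval -0.47 to -0.06, adjusted p = 0.0737), without overlap between 4.46 to 4.56 and 4.69 to 4.88, as were 1 of 9 enzymes and 21.1% of all features.

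The surrounding pathway was described through 4 lists of 59 genes, of which 55 were tested. They were the shuttle and mitochondrial carriers, glutamine and glutamate enzymes, the TCA cycle, and the enzymes of pyruvate and PEP. With NP and MET 0 of 55 were called, beside 0.0373% and 0% of all features. With PHEN 1 of 55, ASNS, was called, beside 0.0261% of all features. ASNS, which makes asparagine from aspartate, differed by 1.09 with NP (SE 0.16, adjusted p = 0.0708), 1.10 with MET (SE 0.16, adjusted p = 0.196) and rose by 1.49 with PHEN (SE 0.16, adjusted p = 0.0418). GPT2, the mitochondrial alanine aminotransferase, differed by 1.06 with NP (SE 0.15, adjusted p = 0.0587), 0.56 with MET and 0.77 with PHEN. Both were above vehicle in 9 of 9 pairs and had the 2 highest means over the 3 compounds. Of all features, 14.1%, 21.1% and 11.2% were higher in all 3 pairs with NP, MET and PHEN. The glutamine carrier SLC1A5 was higher by 0.46, 0.38 and 0.41 with NP, MET and PHEN, also in 9 of 9 pairs, was not called, and is named after its values were seen.

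The 2 lowest means were those of ME3, the other mitochondrial malic enzyme, with 0.44, -0.50 and -0.86 (SE 0.43), and PDK4, a pyruvate dehydrogenase kinase, with -0.34, -0.07 and -0.08 (SE 0.25), none of them called. The 9 tested shuttle and carrier genes had medians of -0.07, 0.02 and -0.04 with NP, MET and PHEN. The 20 TCA cycle genes had medians of -0.05, -0.01 and 0.02, and 16 pyruvate and PEP genes -0.06, -0.06 and -0.02. The 10 glutamine and glutamate genes had medians of 0.07, 0.17 and 0.09. UCP2, GLS2, SLC25A18 and PCK1, the cytosolic counterpart of PCK2, were not tested, since none had a matched probe that was kept.

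**Figure D4:**
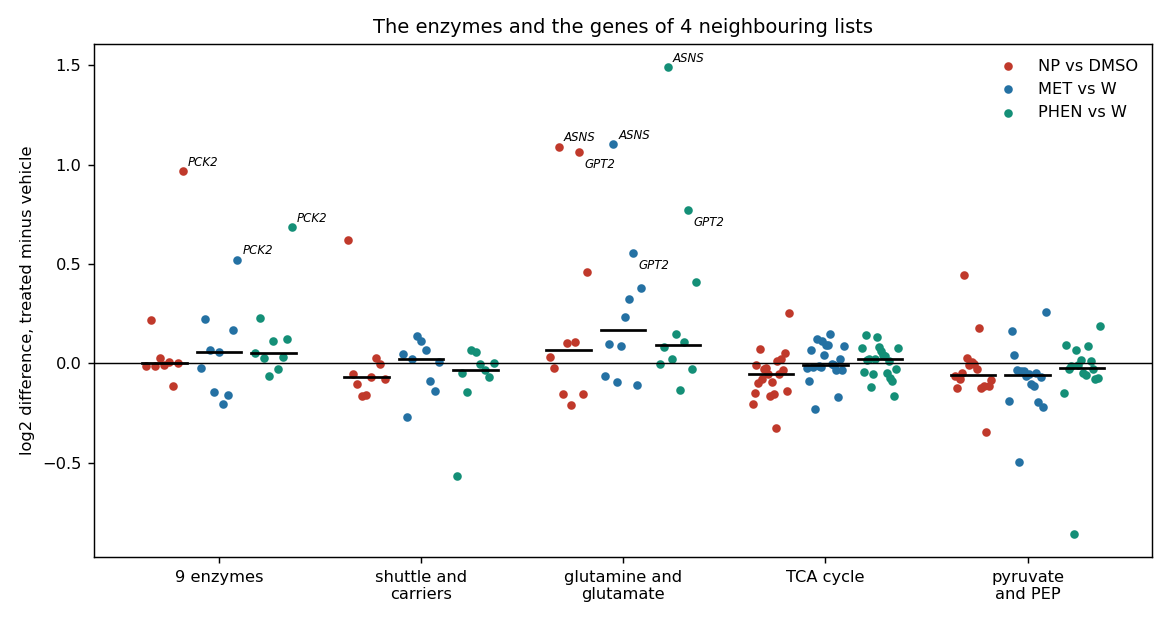
Log2 difference between treated and vehicle arrays (y axis) of the 9 enzymes and of the 55 tested genes of 4 lists (x axis), coloured by comparison, where each point is 1 gene and bars are list medians. PCK2 stands highest of the enzymes (0.97 with NP and 0.68 with PHEN), ASNS (1.09 and 1.49) and GPT2 (1.06 and 0.77) stand highest of the glutamine and glutamate genes, and the TCA cycle genes stay between -0.33 and 0.25.

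Across the 9 treated-minus-vehicle pair differences, the genes most like PCK2 by Pearson's r among 16488 were FOXD1 (0.95), ATXN2 (0.94), SLC1A4 (0.94), ZNF783 (0.93) and KDM7A-DT (0.93). This is a description over points that share W arrays, and FOXD1 itself moved by only -0.01, -0.17 and -0.12 with NP, MET and PHEN. SLC1A4, a neutral amino acid transporter, differed by 0.51, 0.23 and 0.33. The single most alike gene was MCOLN1 for PC, GLB1L for GLUD1, VPS37C for GOT1, SRSF9 for GOT2, TBCE for MDH1, LCMT1 for MDH2, NIM1K for ME1 and MTRR for ME2, with r from 0.93 to 0.99. Between enzymes over the same 9 points, the strongest r were -0.815 for PCK2 and GOT2, 0.686 for ME1 and ME2 and 0.681 for GLUD1 and MDH2. These were picked from all enzyme pairs after the values were seen. The GOT2 differences themselves ran only from -0.08 to 0.13.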

How the data were processed

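Total RNA of 15 A2058 cultures was labelled with Cy3 and hybridised to 1-colour Agilent arrays of 58201 probes. The deposited scanner files hold spot intensity, background-subtracted by Agilent Feature Extraction (10.7.3.1 per the file headers, 9.1 per the labels), with a design on hg19. The authors also deposited a log2 table, scaled to the 75th percentile and floored at 4, which was used as an alternative. Its centring was not stated.

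The processed signal was log2-transformed and each array's 75th percentile was subtracted. Control and outlier spots were left out and probes averaged. Probes that cleared background on every array of 1 or more groups, and had values on at least 8 arrays, were kept, and the one with the highest mean signal stood for its gene. Of 33080 probes with a RefSeq accession, 31104 matched a symbol. Group and replicate number were fitted over all arrays with limma 3.58.1 in R 4.3.3 and p-values were adjusted over 26826 features. The fit was tested on simulated data. The number of arrays limits the precision.

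Equal-numbered arrays of a vehicle set deviated alike from their group means, with r of 0.217 to 0.855, against -0.186 to -0.0207 between DMSO and W. Replicates 1 and 2 shared a slide in each set, and DMSO and W shared no slide. These r therefore cannot tell pairing of the cultures from slide. The published methods used a paired t-test. The alternatives were other blocks, slide terms, normexp, quantile normalization, other filters and probe rules, the authors' table, the methods' t-test, the other vehicle and leaving out each replicate. Slide as a random block was added after seeing the data. The genes, lists and tests were chosen with earlier results of these data known. By rule, the text names the 9 enzymes, called genes of the 4 lists or otherwise their 2 largest rises and falls by the mean over compounds, the 5 genes most like PCK2 and the 1 most like each other enzyme. SLC1A5 and GLUD2 fall outside this rule. Protein sequences were not used here.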

Additional observations from a re-analysis of the deposited data

How the results depend on the processing

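Over 936 values of single enzymes under the alternatives, 887 kept the sign of the reported value and 49 changed it. All 49 belonged to differences that neither setting called, and the cause was not tested. With DMSO as the vehicle of all compounds, MET vs W became 0.063 for GLUD1 and 0.083 for MDH1 and PHEN vs W became -0.043 for GOT2, 0.16 for MDH1 and -0.17 for ME2. With normexp, NP vs DMSO became 0.032 for PC, PHEN vs W became -0.011 for GOT2, NP minus MET became 0.084 for GOT1 and NP minus PHEN became 0.073 for GOT1 and 0.0016 for GOT2. With quantile normalization, NP vs DMSO became 0.021 for PC, 0.011 for GLUD1 and 0.017 for MDH2, NP minus MET became 0.021 for GOT1, NP minus PHEN became 0.027 for GOT1, PHEN vs MET became -0.0058 for GOT1 and 0.027 for GOT2 and DMSO vs W became 0.022 for GOT1. With slide as a random block, DMSO vs W became 0.032 for PCK2 and 0.011 for GOT1. The other sign changes came from leaving out 1 replicate number. For NP vs DMSO the ranges were PC from -0.030 to 0.028, GLUD1 from -0.073 to 0.068, GOT2 from -0.035 to 0.0058, MDH2 from -0.038 to 0.036, ME1 from -0.028 to 0.043 and MDH1 from -0.0016 to 0.076. For PHEN vs W the ranges were GOT2 from -0.027 to 0.079, ME1 from -0.13 to 0.1, MDH1 from -0.22 to 0.12 and ME2 from -0.033 to 0.11. For NP minus MET the ranges were GLUD1 from -0.065 to 0.13, ME2 from -0.038 to 0.096 and GOT1 from -0.11 to 0.11. For NP minus PHEN the ranges were GLUD1 from -0.16 to 0.047, GOT1 from -0.11 to 0.065, GOT2 from -0.11 to 0.033, ME1 from -0.13 to 0.13 and MDH1 from -0.12 to 0.23. For PHEN vs MET the ranges were GOT1 from -0.023 to 0.045, MDH1 from -0.017 to 0.19 and MDH2 from -0.0050 to 0.10. For DMSO vs W the ranges were PCK2 from -0.42 to 0.23, GOT2 from -0.038 to 0.15, GLUD1 from -0.19 to 0.031 and GOT1 from -0.17 to 0.12.

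The number of enzymes called with NP was 1 (PCK2) in place of 0 with the replicate block within each vehicle set, with slide as a term, with slide as a random block and with the methods' paired t-test at an unadjusted p of 0.05, and 0 under the others. In that order, these settings called 0.231%, 0.253%, 0.231% and 0.817% of all features. With PHEN the unadjusted paired t-test also called 1 (PCK2), beside 0.59% of all features, and after Benjamini-Hochberg adjustment it called 0, beside 0% of all features. With DMSO as the comparator 1 enzyme was called with MET (ME1, -1.13), beside 17% of all features. With PHEN 2 were called (PCK2, 0.75, and ME1, -0.95), beside 10.2% of all features. That comparator lay on other slides than MET and PHEN, so compound and slide set cannot be told apart in these calls. The median of the 9 with PHEN became 0.16 with that comparator. Against W and without 1 replicate number, the median ran from 0.021 to 0.11. PCK2 stayed above 0 in all alternatives, from 0.80 to 1.04 with NP, 0.37 to 0.68 with MET and 0.45 to 0.79 with PHEN on their own vehicles. The DMSO against W call of ME1 was also lost with no filter on dim probes (adjusted p = 0.0519), with slide as a random block (adjusted p = 0.0721) and with the methods' paired t-test. Slide as a term and the replicate block within each set could not be estimated for DMSO against W, since no slide or set holds both.

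Over all features, the 10 calls with NP became 62 with the within-set replicate block, 68 with slide as a term, 62 with slide as a random block, 22 with normexp, 17 with quantile normalization, 26 with only probes well above background on all 15 arrays, 3 with no replicate block and 0 with no dim filter, with only the groups compared, with the adjusted paired t-test and without any 1 replicate number. The 7 calls with PHEN became 15 with slide as a term, 13 with slide as a random block and 0 in the same cases as NP and with no replicate block. The 0 calls with MET became 2, 1 and 4 with the block, the term and the random block. With DMSO as the comparator, MET had 4548 calls and PHEN 2740. The 2869 calls between DMSO and W became 491 with slide as a random block, 1162 with normexp, 1644 with probes above background on all arrays, 1899 with the authors' table, 0 without replicate 1 or 2 or with the adjusted t-test, and 5010 without replicate 3. The unadjusted t-test called 218 features with NP, 119 with MET, 158 with PHEN, 133 between PHEN and MET and 1455 between DMSO and W. With 3 arrays per group, limma's SE of a single enzyme's difference ran from 0.08 (PC) to 0.22 (PCK2).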
